A study of Homo sapiens with 9 samples.

Results

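Semaphorins are secreted or membrane-bound guidance ligands, plexins are their signalling receptors, and neuropilins are the binding partners that most secreted class 3 semaphorins need beside a plexin. The genes described here were all entries whose symbol begins with SEMA3 to SEMA7 or PLXNA to PLXND, with NRP1 and NRP2, a family picked with earlier results of these data known. There were 31 of them among the 22295 entries measured, comprising 20 ligands, 9 plexins and 2 neuropilins. Of these, 27 passed the filter of a mean of at least 0.1 FPKM over all libraries and were tested together with all other genes that passed it (15551 in all). FPKM is the number of fragments divided by transcript length in kilobases and by the number mapped in the library, so levels can be compared between genes per length. The 4 not tested, SEMA3E, SEMA3G, SEMA4A and SEMA5A, had means under 0.1 FPKM in every group.

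In the classical pathway, a semaphorin dimer binds a plexin, whose cytoplasmic part acts on small GTPases of the Ras and Rap kind and reaches the actin cytoskeleton, so that growth cones or cell margins retract or advance. Class 3 semaphorins are secreted, classes 4, 5 and 6 span the membrane and class 7 is held there by a lipid anchor. In glioma cells the family is known for its part in migration and in signalling to blood vessels, since neuropilins also bind vascular endothelial growth factors.

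The samples were U251 cells, an established human glioblastoma line, infected with lentivirus that carried an sh-RNA. The group sh-Luci-3d (3 libraries) received a control sh-RNA against luciferase and was taken 3 days after infection. The groups sh-PTBP1-3d and sh-PTBP1-7d (3 libraries each) received the sh-RNA against PTBP1, an RNA-binding repressor of splicing, and were taken 3 and 7 days after infection. In the study's scheme all cells were moved to neuronal induction medium from the second day after infection. This medium contains neural supplements and the small molecules forskolin and dorsomorphin. No sh-Luci library of 7 days was analysed here, so the knockdown, the days since infection and the days in medium cannot be told apart in a comparison with sh-PTBP1-7d. A single line and a single PTBP1 sh-RNA were used. The labels do not say that replicates were separate cultures, and p-values then measure only the spread between these samples. In bulk RNA, fewer cells that express a gene and less of its RNA per cell cannot be told apart.

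PTBP1 itself fell from 116 ± 7.58 FPKM in sh-Luci-3d to 63.9 ± 2.67 in sh-PTBP1-3d and 50.5 ± 0.645 in sh-PTBP1-7d (means ± SD, n = 3, as throughout). The fall by day 3 had an adjusted p of 0.00314 and held in 16 of 19 alternative settings, and was lost without sh-PTBP1-3d replicate 3 (range of the adjusted p 3.27e-04 to 0.0821). Summed FPKM ranged from 367412 to 404922 per library, and the sequencing depth is unknown. The glial and stem-like glioma markers VIM, NES, SOX2, SOX9 and CD44 were expressed, while the mature astrocyte markers GFAP, S100B, AQP4 and ALDH1L1 had means under 1 FPKM, and the summed level of all 9 markers was 4457 to 4584 FPKM in sh-Luci-3d, 4568 to 4877 in sh-PTBP1-3d and 1386 to 1509 in sh-PTBP1-7d. VIM alone had 4168, 4381 and 1169 FPKM of this. Of 7 of these markers tested with limma, 1 rose and 2 fell between the knockdown groups with an adjusted p under 0.01. The falls were VIM and CD44 (means of 166 and 62.3 FPKM, log2 fold change -1.41, SE 0.0987, adjusted p = 1.12e-06). The rise was S100B, from means of 0.115 to 0.797 FPKM (log2 fold change 2.08, SE 0.423, adjusted p = 0.00202). The S100B call held in 14 of the 18 alternatives in which it was tested (adjusted p 1.97e-04 to 0.0393). SOX2 had means of 106, 125 and 145 FPKM. The corresponding sums of 10 neuronal markers were 484 to 522, 555 to 573 and 251 to 259 FPKM, and 5 of the 10 had means under 1 FPKM. Of 9 neuronal markers tested with limma, 1 rose and 3 fell between the knockdown groups with an adjusted p under 0.01. The falls were TUBB3 and NEFL, which made up most of the sum, and GAP43 (log2 fold change -2.34, SE 0.537, adjusted p = 0.00423). GAP43 was uneven among the 3-day knockdown libraries (0.602, 0.987 and 3.88 FPKM, the last in replicate 3). Its call held in 12 of the 18 alternatives in which it was tested (log2 fold change -2.86 to -1.06, adjusted p 0.00152 to 0.0323). Compared with sh-Luci-3d, GAP43 did not pass (adjusted p = 0.0143). The rise was MAP2, from 20.3 to 38.9 FPKM (log2 fold change 0.94, SE 0.157, adjusted p = 5.80e-04). SNAP25 did not reach that level between the knockdown groups (adjusted p = 0.0177). It did against sh-Luci-3d (means of 1.27 and 4.32 FPKM, adjusted p = 9.16e-05). All 5 endothelial markers were under 1 FPKM, as were 4 of 5 immune and 5 of 6 oligodendrocyte markers. Both AIF1 and CD3E of the immune list and OLIG1 and MOG of the oligodendrocyte list were at 0 in every library. The immune sum was 10.2 to 11.4, 10.7 to 11.3 and 16.1 to 18.9 FPKM, nearly all of it from CD68, and the oligodendrocyte sum 1.64 to 1.77, 1.38 to 1.73 and 1.97 to 2.60, nearly all of it from PDGFRA. The part of these shifts in the results on semaphorins was not tested. The library sh-PTBP1-3d replicate 3 stood apart by 11.5 FPKM of the neuronal gene STMN2, which was at 0 in the other 8 libraries, and results are also given without it.

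The first question was whether PTBP1 knockdown changed these genes by day 3. No member passed the false discovery rate (FDR) of 0.05 with limma, against 0.0322% of all genes tested. This also held for the 16 ligands, the 9 plexins and both neuropilins taken apart, and in each of the 19 alternative settings. Only 5 of the 15551 genes tested passed, so 0 among 27 members does not show that the family was unchanged. The subsets and settings repeat this count and add no separate evidence. The study lists more genes as changed in this comparison than passed here, and the reason was not tested. At an unadjusted p under 0.05 there was 1 member (3.70%, against 7.24% of all genes), SEMA3F, a secreted ligand with high affinity for NRP2. Its levels were 1.80, 1.73 and 2.21 FPKM in sh-Luci-3d and 2.50, 2.39 and 2.70 in sh-PTBP1-3d. The groups did not overlap, but the difference of 0.39 on the log2 scale (SE 0.141, unadjusted p = 0.0184) did not pass after adjustment (adjusted p = 0.617). SEMA3F was the only one of 27 members (3.70%) without overlap between these groups, against 10.8% of all genes. The other members differed by -0.11 to 0.32 on the log2 scale, and the median over the 27 was 0.082 beside 0.00995 over all genes. All fold changes here are on the scale of log2(FPKM + 0.1), where the change of a weakly expressed gene comes out too small. Exact permutation of 3 against 3 libraries reaches at best a two-sided p of 0.1 for a single gene, so adjusted p-values are those of limma with Benjamini-Hochberg adjustment over all genes tested.

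The second question was what changed between the knockdown cells of 3 and 7 days. Here 12 of the 27 members (44.4%) passed the FDR of 0.01, against 35.8% of all genes tested. Of these, 8 rose (29.6%, against 20.3% of all genes) and 4 fell (14.8%, against 15.5%). The rises were 6 ligands, SEMA3B, SEMA4B, SEMA4C, SEMA4D, SEMA6A and SEMA6D, and the plexins PLXNB1 and PLXNB2. The falls were both neuropilins, the plexin PLXNB3 and the ligand SEMA7A. A fold change above 2 as well was reached by 3 members (11.1%, against 14.2% of all genes), SEMA6A and SEMA6D upward and NRP2 downward. Over the 19 alternatives this count was 2 to 4, and with a pseudocount of 1 SEMA6D (log2 fold change 0.95) was under the fold. The median log2 fold change was 0.31 over the 16 ligands, 0.33 over the 9 plexins and -1.57 over the 2 neuropilins, beside 0.0924 over all genes. The groups did not overlap for 20 of 27 members (74.1%), against 62.3% of all genes. Whether these shares differ from those of all genes was not tested, and what follows describes the members one by one.

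A fit on TPM, which rescales every library to the same total, moved the median of all genes from 0.092 to 0.195 and gave 11 rises and 2 falls among the members in place of 8 and 4. Median-ratio scaling moved that median to 0.0102 and gave 7 rises and 4 falls. With quantile normalization the median was -0.0087, with 6 rises and 3 falls. Without sh-PTBP1-3d replicate 3, 7 members passed (5 rises and 2 falls), as did 7 without sh-PTBP1-7d replicate 2. The 7 members whose call held in all 19 alternatives were NRP2, PLXNB2, PLXNB3, SEMA4B, SEMA4D, SEMA6A and SEMA6D.

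Upstream sequence is shown for the 5 members with the largest changes past the FDR that had a RefSeq promoter window lying outside the annotated exons of the gene. Each is the 250 bases before a RefSeq transcription start on GRCh38.p14, in the direction of transcription. Of the 12 members past the FDR, 10 had an entry, and SEMA6A and NRP1 had none. NRP2, the largest fall, had an entry but no window clear of its annotated exons, so it is not shown. Capitals mark matches on either strand to the cAMP response element TGACGTCA, its core TGACG, the E-box CACGTG, the GC box GGGCGG and the TATA box TATAAA. The windows are chr15:47183839-47184088 (plus strand) for SEMA6D, chr22:50301670-50301919 (minus strand) for PLXNB2, chr9:89495657-89495906 (minus strand) for SEMA4D, chr2:96870081-96870330 (minus strand) for SEMA4C and chr15:74433959-74434208 (minus strand) for SEMA7A. Those of PLXNB2, SEMA4D and SEMA4C lie inside the gene's span in GENCODE, downstream of its outermost start.
SEMA6D: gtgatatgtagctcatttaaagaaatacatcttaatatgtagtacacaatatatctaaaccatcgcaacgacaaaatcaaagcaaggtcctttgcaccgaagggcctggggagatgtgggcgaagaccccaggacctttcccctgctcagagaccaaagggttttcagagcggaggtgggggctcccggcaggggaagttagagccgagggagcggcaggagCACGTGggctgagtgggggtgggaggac
PLXNB2: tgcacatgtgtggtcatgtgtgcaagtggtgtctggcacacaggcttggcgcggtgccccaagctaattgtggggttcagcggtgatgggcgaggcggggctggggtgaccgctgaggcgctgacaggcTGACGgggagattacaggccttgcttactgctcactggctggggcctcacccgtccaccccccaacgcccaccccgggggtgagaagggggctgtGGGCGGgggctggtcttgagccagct
SEMA4D: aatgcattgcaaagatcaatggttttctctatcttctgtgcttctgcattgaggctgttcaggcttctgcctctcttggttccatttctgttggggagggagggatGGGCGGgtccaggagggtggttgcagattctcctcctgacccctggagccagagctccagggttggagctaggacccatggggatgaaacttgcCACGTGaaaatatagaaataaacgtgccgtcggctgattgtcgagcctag
SEMA4C: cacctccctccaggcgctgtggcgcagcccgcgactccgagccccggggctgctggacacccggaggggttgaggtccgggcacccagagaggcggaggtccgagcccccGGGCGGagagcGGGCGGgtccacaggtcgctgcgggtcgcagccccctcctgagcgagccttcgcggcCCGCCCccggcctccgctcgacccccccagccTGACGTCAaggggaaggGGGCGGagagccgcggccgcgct
SEMA7A: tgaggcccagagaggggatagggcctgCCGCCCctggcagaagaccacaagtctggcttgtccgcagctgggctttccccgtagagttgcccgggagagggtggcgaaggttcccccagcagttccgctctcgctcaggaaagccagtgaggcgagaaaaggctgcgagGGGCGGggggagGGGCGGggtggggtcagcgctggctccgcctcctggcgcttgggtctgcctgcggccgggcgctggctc

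The first 4 windows belong to members that rose and the last to one that fell. The SEMA4C window was the only one of the 5 with a full cAMP response element, which 1.77% of 27305 RefSeq promoter windows of this length hold, and its 2 core matches lie within that palindrome. PLXNB2 held 1 core match outside a full element, and 21.7% of all windows hold at least 1. An E-box was present once in the windows of SEMA6D and SEMA4D (6.49% of all windows). GC boxes numbered 4 in SEMA4C, 3 in SEMA7A and 1 each in PLXNB2 and SEMA4D (42.3% of all windows hold at least 1). No TATA box was found in the 5 windows (11.1% of all windows). The GC content was 52.4% in SEMA4D, 53.6% in SEMA6D, 66.4% in PLXNB2, 70.0% in SEMA7A and 78.0% in SEMA4C, beside a median of 58.0% over all windows. These matches describe the letters of the windows, and no binding was measured.

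The neuropilins have short cytoplasmic tails without enzyme activity and act as binding subunits with plexins or with receptors of vascular endothelial growth factors. NRP2 (chr2:205681990-205798133, plus strand, GRCh38), which binds SEMA3F and SEMA3C among others, showed the largest fall among the members that passed. Its levels were 59.2, 58.4 and 53.1 FPKM in sh-Luci-3d, 57.8, 59.2 and 56.5 in sh-PTBP1-3d and 9.18, 9.12 and 7.40 in sh-PTBP1-7d. The first 2 groups overlapped and every 7-day library lay far below both. The mean of 8.57 ± 1.01 FPKM was 14.8% of that at 3 days (log2 fold change -2.75, SE 0.0944, adjusted p = 8.86e-09, a 6.72-fold lower level).

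NRP1 (chr10:33177492-33336262, minus strand), the binding subunit for SEMA3A, fell less. It was at 78.8, 85.2 and 67.5 FPKM in sh-Luci-3d, 74.7, 72.9 and 70.5 in sh-PTBP1-3d and 58.8, 59.0 and 49.9 in sh-PTBP1-7d. All 7-day libraries were below all others, and the 7-day mean was 76.9% of the 3-day mean (log2 fold change -0.38, SE 0.0999, adjusted p = 0.00864). This call held in 8 of 19 alternatives, was lost on leaving out sh-Luci-3d replicate 1 or any single library of the knockdown groups, and had adjusted p-values from 0.00136 to 0.0509 over the alternatives.

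The neuropilins together summed to 134 ± 12.1 FPKM in sh-Luci-3d, 131 ± 3.07 in sh-PTBP1-3d and 64.5 ± 6.18 in sh-PTBP1-7d. NRP2 made up 42.5 ± 1.71% and 44.3 ± 0.601% of this sum in the 3-day groups and 13.3 ± 0.314% at 7 days. NRP1 was the higher of the pair in all 9 libraries, with 86.5% to 87.1% of the sum in those of 7 days and 55.2% to 56.4% in sh-PTBP1-3d.

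Among the plexins, all 3 calls fell in the B class. These plexins bind membrane semaphorins of class 4 (PLXNB1, PLXNB2) or class 5 (PLXNB3) and couple to RhoA through exchange factors. PLXNB2 (chr22:50274979-50307627, minus strand), a receptor of SEMA4C and SEMA4D, was at 29.3, 27.6 and 34.1 FPKM in sh-Luci-3d, 33.8, 32.6 and 29.8 in sh-PTBP1-3d and 65.1, 61.8 and 59.1 in sh-PTBP1-7d. Every 7-day library was above every other (log2 fold change 0.95, SE 0.0932, adjusted p = 1.26e-05). PLXNB1 (chr3:48403854-48430051, minus strand), the high-affinity receptor of SEMA4D, was lower in level, at 6.88, 5.99 and 7.57 FPKM in sh-Luci-3d, 8.00, 6.80 and 6.29 in sh-PTBP1-3d and 11.4, 10.8 and 9.06 in sh-PTBP1-7d. Its 7-day libraries also lay above the rest (log2 fold change 0.56, SE 0.132, adjusted p = 0.00473). The PLXNB1 call held in 12 of 19 alternatives (adjusted p 0.00160 to 0.0264) and was lost without sh-PTBP1-3d replicate 2 or 3 or sh-PTBP1-7d replicate 1 or 2.

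PLXNB3 (chrX:153764196-153779346, plus strand), a receptor of SEMA5A, went the other way. It was at 22.2, 21.7 and 23.6 FPKM in sh-Luci-3d, 23.8, 24.0 and 21.3 in sh-PTBP1-3d and 17.0, 16.1 and 14.4 in sh-PTBP1-7d, with all 7-day libraries below the others (log2 fold change -0.54, SE 0.0885, adjusted p = 5.10e-04). PLXNB3 overlaps the gene SRPK3 on the same strand, so the division of fragments between them is uncertain. Its ligand gene SEMA5A was not tested, with 0.0664, 0.0763 and 0.0329 FPKM as group means.

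PLXND1 (chr3:129555175-129606818, minus strand), which SEMA3E binds without a neuropilin, did not pass between the knockdown groups. Its levels were 19.5, 19.1 and 21.3 FPKM in sh-Luci-3d, 22.4, 21.2 and 22.0 in sh-PTBP1-3d and 27.0, 26.9 and 25.0 in sh-PTBP1-7d (log2 fold change 0.27, SE 0.0762, adjusted p = 0.0139). The 7-day libraries were above all others, and against sh-Luci-3d PLXND1 passed (log2 fold change 0.40, SE 0.0762, adjusted p = 0.00142). Its ligand gene SEMA3E was at 0.0157, 0.00494 and 0.00210 FPKM.

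The A class plexins, which pair with neuropilins for class 3 ligands or bind class 6 ligands directly, did not pass in either direction. PLXNA3 was the highest of them, with group means of 16.7, 16.7 and 16.2 FPKM, and its difference changed sign with TPM. PLXNA1 had means of 10.6, 10.5 and 13.3 FPKM (log2 fold change 0.33, SE 0.107, adjusted p = 0.0234). PLXNA2 and PLXNA4, the receptors of SEMA6A, were at 1.98, 2.16 and 2.65 FPKM and at 0.363, 0.344 and 0.557 FPKM, with adjusted p-values of 0.123 and 0.0852. PLXNC1, the receptor of SEMA7A, was near the limit of the filter at 0.102, 0.152 and 0.356 FPKM (adjusted p = 0.0823). PLXNA3 overlaps LAGE3 and PLXNC1 overlaps CEP83 in the annotation, and the use of strand in counting is not given in the sources used here.

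Summed over the 9 plexins, the level was 109 ± 7.38 FPKM in sh-Luci-3d, 114 ± 5.40 in sh-PTBP1-3d and 148 ± 9.79 in sh-PTBP1-7d. The 3 B class genes went from 62.1 ± 4.23 to 88.3 ± 5.49 FPKM between the knockdown groups, and the 4 A class genes from 29.7 ± 1.26 to 32.7 ± 3.17 FPKM. PLXNB2 took 27.7 ± 1.20%, 28.1 ± 0.608% and 42.0 ± 0.972% of the plexin sum, while PLXNB3 took 20.6 ± 0.448%, 20.3 ± 0.761% and 10.7 ± 0.175%. In the 3-day groups PLXNB2 was the highest plexin, followed by PLXNB3 and PLXND1, whose ranges overlapped in sh-PTBP1-3d. At 7 days PLXND1 stood above PLXNB3 in every library, and the range of PLXNB3 overlapped that of PLXNA3.

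**Figure D1:**
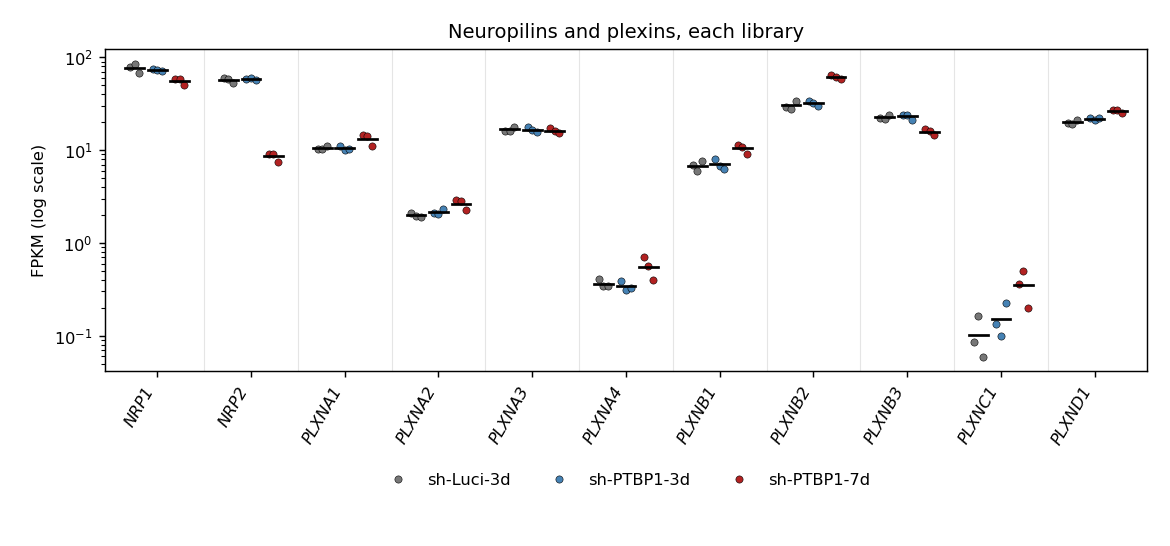
FPKM of the 2 neuropilins and 9 plexins in each library on a logarithmic axis, with sh-Luci-3d in grey, sh-PTBP1-3d in blue and sh-PTBP1-7d in red, and a bar at each group mean. The 7-day points of NRP2 lie between 7.40 and 9.18 FPKM, below all others of that gene, and those of PLXNB2 between 59.1 and 65.1 FPKM, above all others.

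Among the ligands, class 6 held the 2 largest rises. These are membrane semaphorins that bind A class plexins on neighbouring cells. SEMA6A (chr5:116443616-116574934, minus strand) was at 1.34, 1.44 and 0.994 FPKM in sh-Luci-3d, 1.14, 1.33 and 1.22 in sh-PTBP1-3d and 16.5, 16.0 and 15.7 in sh-PTBP1-7d. The 3-day groups overlapped, and the 7-day libraries stood close together far above them. The ratio of the 7-day to the 3-day knockdown mean was 13.1 (log2 fold change 3.60, SE 0.143, adjusted p = 2.15e-08). SEMA6A was among the candidate genes that the study picked from these libraries, so its rise is not independent evidence of a direction.

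SEMA6D (chr15:47184101-47774223, plus strand), a ligand of PLXNA1, was lower in level, at 0.637, 0.729 and 0.490 FPKM in sh-Luci-3d, 0.872, 0.833 and 0.559 in sh-PTBP1-3d and 2.71, 2.38 and 2.11 in sh-PTBP1-7d. Its 7-day libraries were above all others (log2 fold change 1.56, SE 0.211, adjusted p = 1.35e-04). SEMA6B (chr19:4542593-4559808, minus strand), a ligand of PLXNA4, was at 2.25, 2.20 and 4.13 FPKM in sh-Luci-3d, 2.81, 3.09 and 3.50 in sh-PTBP1-3d and 5.85, 5.31 and 4.84 in sh-PTBP1-7d. The 7-day libraries were above the rest, but the difference from sh-PTBP1-3d did not pass (log2 fold change 0.75, SE 0.214, adjusted p = 0.0137). Against sh-Luci-3d SEMA6B passed (log2 fold change 0.93, SE 0.214, adjusted p = 0.00417) in the main setting and in 10 of 19 alternatives (adjusted p 4.48e-05 to 0.0255), and that call was lost without sh-Luci-3d replicate 1 or 2 or sh-PTBP1-7d replicate 1 or 2. SEMA6C stayed under 1 FPKM in every library, its groups overlapped, and its difference changed sign between settings. The summed level of the 4 class 6 genes was 5.09 ± 0.829 FPKM in sh-Luci-3d, 5.57 ± 0.410 in sh-PTBP1-3d and 24.3 ± 1.23 in sh-PTBP1-7d.

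Class 4 held 3 of the rises. SEMA4B (chr15:90160604-90229679, plus strand) was the highest of the class, at 17.2, 15.9 and 18.1 FPKM in sh-Luci-3d, 18.2, 19.3 and 16.9 in sh-PTBP1-3d and 29.6, 30.8 and 30.6 in sh-PTBP1-7d. Its 7-day libraries were above all others (log2 fold change 0.74, SE 0.0819, adjusted p = 3.04e-05). SEMA4C (chr2:96859716-96870757, minus strand), a ligand of PLXNB2, was at 7.62, 7.19 and 11.3 FPKM in sh-Luci-3d, 9.70, 9.55 and 9.53 in sh-PTBP1-3d and 18.4, 16.4 and 14.3 in sh-PTBP1-7d. The 7-day libraries were again the highest (log2 fold change 0.76, SE 0.158, adjusted p = 0.00239), although sh-Luci-3d replicate 3 stood above the rest of its group. The SEMA4C call held in 15 of 19 alternatives (adjusted p 9.02e-05 to 0.0169) and was lost without sh-PTBP1-3d replicate 3 or sh-PTBP1-7d replicate 1 or 2.

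SEMA4D (chr9:89360787-89498130, minus strand), the ligand of PLXNB1 that can be shed from the membrane, was at 1.85, 1.57 and 1.71 FPKM in sh-Luci-3d, 1.85, 2.05 and 1.97 in sh-PTBP1-3d and 4.08, 3.59 and 3.35 in sh-PTBP1-7d. The 7-day libraries lay above all others (log2 fold change 0.87, SE 0.131, adjusted p = 2.80e-04). SEMA4F had overlapping groups with means of 5.01, 6.10 and 5.23 FPKM (adjusted p = 0.353). SEMA4G, which overlaps MRPL43 in the annotation, was under 1 FPKM throughout, with an adjusted p of 0.427. The 6 class 4 genes summed to 32.9 ± 3.18, 36.2 ± 2.28 and 56.1 ± 3.21 FPKM.

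Class 3 held most of the ligand transcript but only 1 of the calls. SEMA3B (chr3:50267558-50277546, plus strand), a secreted ligand known as a candidate tumour suppressor, was at 1.99, 1.73 and 2.32 FPKM in sh-Luci-3d, 2.64, 2.23 and 2.36 in sh-PTBP1-3d and 3.37, 3.57 and 4.06 in sh-PTBP1-7d. The 7-day libraries were above all others (log2 fold change 0.58, SE 0.144, adjusted p = 0.00624). That call held in 10 of 19 alternatives (adjusted p 0.00206 to 0.0426) and was lost without any single library of the knockdown groups, whereas the rise against sh-Luci-3d held in all 19 (log2 fold change 0.84, SE 0.144, adjusted p = 6.50e-04).

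SEMA3C, a ligand of both neuropilins, was the highest ligand in every library. Its levels were 126, 113 and 89.2 FPKM in sh-Luci-3d, 106, 109 and 104 in sh-PTBP1-3d and 139, 138 and 111 in sh-PTBP1-7d. The 7-day libraries were above those of sh-PTBP1-3d but overlapped sh-Luci-3d, and the difference did not pass (log2 fold change 0.28, SE 0.129, adjusted p = 0.0990). SEMA3A, the classical growth cone repellent that binds NRP1, had means of 12.4 ± 2.01, 11.8 ± 0.428 and 14.9 ± 0.730 FPKM and did not pass either (log2 fold change 0.33, SE 0.116, adjusted p = 0.0377). SEMA3D had means of 0.600, 0.756 and 0.971 FPKM (adjusted p = 0.346) and SEMA3F of 1.91, 2.53 and 2.07 FPKM (adjusted p = 0.128).

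SEMA7A (chr15:74409289-74433958, minus strand), the lipid-anchored ligand of PLXNC1 and of integrins, was the only ligand that fell past the FDR. It was at 1.34, 1.40 and 1.77 FPKM in sh-Luci-3d, 1.76, 1.44 and 1.39 in sh-PTBP1-3d and 1.05, 0.803 and 0.508 in sh-PTBP1-7d. The 7-day libraries were below all others (log2 fold change -0.92, SE 0.236, adjusted p = 0.00796). Its level was low and its calls held in the fewest alternatives of all members called, in 7 of 19 alternatives against sh-PTBP1-3d (adjusted p 0.00160 to 0.0348) and in 5 of 19 against sh-Luci-3d (adjusted p 0.00156 to 0.0337). Against sh-PTBP1-3d the call was lost without any single library other than sh-Luci-3d replicate 3 or sh-PTBP1-7d replicate 1, and against sh-Luci-3d without any other than sh-PTBP1-7d replicate 1. SEMA5B, a class 5 ligand, was at 0.127, 0.164 and 0.306 FPKM in sh-Luci-3d, 0.107, 0.155 and 0.300 in sh-PTBP1-3d and 0.0357, 0.0123 and 0 in sh-PTBP1-7d and did not pass (log2 fold change -1.26, SE 0.381, adjusted p = 0.0178).

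The 20 ligand genes summed to 166 ± 17.3 FPKM in sh-Luci-3d, 167 ± 4.75 in sh-PTBP1-3d and 232 ± 21.4 in sh-PTBP1-7d. SEMA3C took 65.6 ± 4.86%, 63.5 ± 0.334% and 55.6 ± 1.97% of this sum. SEMA6A took 0.753 ± 0.0983%, 0.735 ± 0.0457% and 6.95 ± 0.529%, and SEMA4B 10.3 ± 1.57%, 10.8 ± 0.397% and 13.2 ± 1.43%. Behind SEMA3C, the order in sh-PTBP1-3d was SEMA4B, SEMA3A and SEMA4C without overlap between neighbours. At 7 days SEMA4B remained next, followed by SEMA4C, SEMA6A and SEMA3A, where the range of SEMA4C overlapped those of both others and SEMA6A was above SEMA3A in every library.

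**Figure D2:**
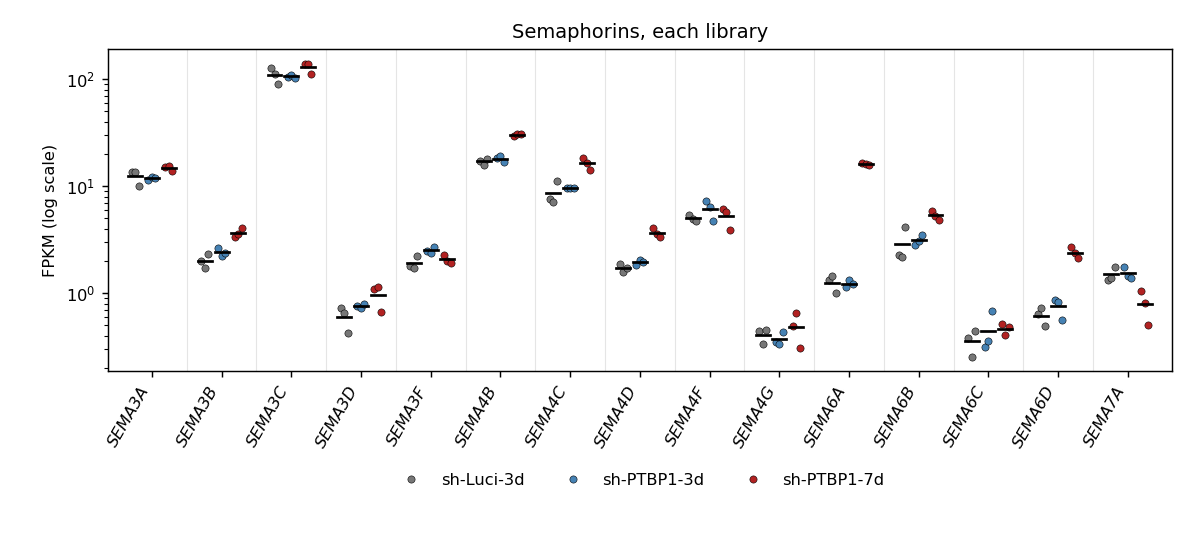
FPKM of 15 semaphorins in each library on a logarithmic axis, with sh-Luci-3d in grey, sh-PTBP1-3d in blue and sh-PTBP1-7d in red, and a bar at each group mean. SEMA5B, which was at 0 in 1 library, and the 4 untested genes are not drawn; the 7-day points of SEMA6A lie between 15.7 and 16.5 FPKM, above all 3-day points of that gene.

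The comparison of sh-PTBP1-7d with sh-Luci-3d shares the 7-day libraries with the one above, and its values are given beside them. It called 14 of 27 members (51.9%, against 35.6% of all genes) at an FDR of 0.01. Of these, 10 rose (37.0%, against 20.6% of all genes) and 4 fell (14.8%, against 15.0%). The rises were the 8 named above together with PLXND1 and SEMA6B, and the falls were NRP1, NRP2, PLXNB3 and SEMA7A. A fold change above 2 was added in 5 (18.5%, against 14.6% of all genes), namely SEMA6A, SEMA6D, SEMA4D and PLXNB2 upward and NRP2 downward. The log2 fold changes of these 5 were 3.59, 1.80, 1.06, 1.03 and -2.72 in that order, beside 3.60, 1.56, 0.87, 0.95 and -2.75 against sh-PTBP1-3d. SEMA4D and PLXNB2 lie close to the fold threshold and were under it against sh-PTBP1-3d. The number past the FDR and the fold was 8 with TPM and 3 with median-ratio scaling. The median over the 27 members was 0.40, beside 0.0993 over all genes.

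NRP1 passed with a log2 fold change of -0.46 (adjusted p = 0.00292) against sh-Luci-3d, in 12 of 19 alternatives, and the call was lost without sh-Luci-3d replicate 1 or 2 or sh-PTBP1-7d replicate 3. PLXNB1 passed at 0.61 (adjusted p = 0.00301) in 15 of 19, and was lost without sh-Luci-3d replicate 2 or sh-PTBP1-7d replicate 1 or 2. Over the alternatives the adjusted p ranged from 3.42e-04 to 0.0142 for NRP1 and from 0.00127 to 0.0160 for PLXNB1. PLXNB3 (-0.51), SEMA4B (0.83) and SEMA4C (0.93) passed in all 19, with adjusted p-values of 7.66e-04, 1.32e-05 and 6.28e-04.

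Other genes of the pathway were taken from 4 lists. Of 29 listed effectors that act downstream of plexins, 28 were tested, and at 7 against 3 days of knockdown 2 rose and 11 fell, with a median log2 fold change of -0.37, beside 0.0924 over all genes, of which 20.3% rose and 15.5% fell. The rises were FYN, a tyrosine kinase that phosphorylates proteins of the SEMA3A response, and RRAS, a GTPase on which the plexin GAP domain acts. FYN had 6.06, 7.57 and 7.40 FPKM in sh-PTBP1-3d and 16.9, 16.4 and 15.6 in sh-PTBP1-7d (log2 fold change 1.21, SE 0.103, adjusted p = 4.61e-06). RRAS had 25.9, 28.3 and 24.2 FPKM in sh-PTBP1-3d and 53.7, 53.9 and 52.1 in sh-PTBP1-7d (log2 fold change 1.02, SE 0.152, adjusted p = 2.53e-04). Neither gene's groups overlapped.

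The 11 falls among the effectors, named after their values were seen, were all under a fold of 2. They were the 3 MICAL genes, which encode actin-oxidising enzymes bound by plexins, with log2 fold changes of -0.42 (MICAL1), -0.97 (MICAL2) and -0.89 (MICAL3). They also included the collapsin response mediators DPYSL3 (-0.45) and DPYSL5 (-0.82), and the GTPases RHOA (-0.57), RRAS2 (-0.72) and RAP1B (-0.65). The others were CFL1 (-0.80), which severs actin filaments, the kinase CDK5 (-0.64) and the neuropilin adaptor GIPC1 (-0.61). MICAL2 had means of 3.21 FPKM in the control, 4.69 after 3 days of knockdown and 2.35 after 7. Its 3-day knockdown libraries lay above the control without overlap (log2 fold change 0.55, adjusted p = 0.476). Compared with sh-Luci-3d at 7 days, MICAL2 (-0.42, adjusted p = 0.0438), DPYSL3 (-0.26, 0.0164) and GIPC1 (-0.47, 0.0127) did not pass. The rest of these falls did. The calls of MICAL1 and GIPC1 each held in 13 of 19 alternatives (adjusted p 6.08e-04 to 0.0177 and 2.19e-05 to 0.0191) and were lost without sh-PTBP1-3d replicate 1 or 2 or sh-PTBP1-7d replicate 2 or 3. None of the 28 effectors passed at day 3 with limma, while 5 (17.9%) had an unadjusted p under 0.05, against 7.24% of all genes.

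Of 16 listed co-receptors, 10 were tested, with 1 rise, 3 falls and a median of -0.24, where 20.3% of all genes rose and 15.5% fell, with a median of 0.0924. L1CAM, an adhesion molecule that joins NRP1 in the SEMA3A receptor, had 18.9, 17.5 and 18.5 FPKM in sh-PTBP1-3d and 2.59, 2.62 and 1.95 in sh-PTBP1-7d (log2 fold change -2.90, SE 0.116, adjusted p = 2.27e-08). NRCAM, a relative of L1CAM that joins NRP2, had 8.25, 9.01 and 7.91 FPKM in sh-PTBP1-3d and 31.3, 29.8 and 27.5 in sh-PTBP1-7d (log2 fold change 1.80, SE 0.157, adjusted p = 5.42e-06). The groups did not overlap for either adhesion molecule, and the directions were opposite. MET, the receptor of hepatocyte growth factor that associates with PLXNB1, had 31.2, 33.2 and 31.8 FPKM in sh-PTBP1-3d and 14.9, 14.7 and 11.7 in sh-PTBP1-7d (log2 fold change -1.22, SE 0.123, adjusted p = 1.58e-05). The remaining fall was ITGB1, the integrin subunit used by SEMA7A (log2 fold change -0.57, SE 0.106, adjusted p = 0.00116), named after its values were seen. FLT1, TREM2 and TYROBP were at 0 in every library, and the vascular endothelial growth factor receptor KDR had means of 0.198, 0.200 and 0.0635 FPKM.

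Of the 4 vascular endothelial growth factor ligands that neuropilins bind, 1 fell (25.0%, against 15.5% of all genes) and the median was -0.38. VEGFC, a ligand of the NRP2 complex, was at 5.94, 6.78 and 6.58 FPKM in sh-Luci-3d, 5.69, 5.78 and 5.56 in sh-PTBP1-3d and 1.42, 1.30 and 1.62 in sh-PTBP1-7d (log2 fold change -1.91, SE 0.116, adjusted p = 3.87e-07). VEGFA had means of 45.3 and 38.7 FPKM in the knockdown groups (adjusted p = 0.0775). Of the 7 proteases that cleave semaphorins or shed them from the membrane, 3 rose (42.9%, against 20.3% of all genes) and 1 fell (14.3%, against 15.5%), with a median of 0.64. PCSK5, a proprotein convertase, had 0.692, 0.579 and 0.859 FPKM in sh-PTBP1-3d and 1.76, 1.53 and 1.34 in sh-PTBP1-7d (log2 fold change 1.03, SE 0.188, adjusted p = 0.00107). The others, named after their values were seen, were the sheddases MMP14 (0.88) and ADAM17 (0.64), which rose, and FURIN (-0.67), a convertase that cleaves class 3 semaphorins, which fell. The ADAM17 call held in 12 of 19 alternatives (adjusted p 6.02e-04 to 0.0283) and was lost without any single sh-PTBP1-3d library or without sh-PTBP1-7d replicate 1 or 2. At day 3 no co-receptor, growth factor or protease passed with limma, with 0, 0 and 1 of them at an unadjusted p under 0.05, beside 7.24% of all genes.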

How the data were processed

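RNA-seq was performed on 9 libraries of U251 cells, in 3 groups of 3 given by their labels (control, and PTBP1 knockdown of 3 and of 7 days). The deposited table gives 1 FPKM value for each gene in each library, made by the authors from Illumina HiSeq reads after filtering and alignment. They also deposited the positions of loci assembled from the reads, a table of another kind of value, used here only for loci near the members. HISAT2 and GRCh38 are named in the submitters' processing notes. The counting program, annotation and strand setting are not given in the sources used here. FPKM hold no read counts, so depth is unknown and no counting interval can be given.

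From the deposited FPKM, log2(FPKM + 0.1) was fitted with limma 3.58.1 in R 4.3.3 for the 15551 entries with a mean of at least 0.1 FPKM, using a single model with a term for each group, all 9 libraries and the intensity trend. The Benjamini-Hochberg adjustment covered every entry tested. The thresholds followed the study's methods, an FDR of 0.05 at day 3 and of 0.01 between the knockdown groups, each also with a fold change above 2. The 0.01 level was also taken where the 7-day group was compared with the control. The fit was tested on simulated data. Values per library were printed for members past the FDR in a comparison with a group mean of at least 1 FPKM, and of the other lists for at most the 3 largest rises and falls past the FDR and the fold. A few other genes are given besides these. The members and lists were chosen with earlier results of these data known.

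The 19 alternatives were pseudocounts of 1 and 0.01, no filter or one at 1 FPKM, scaling to TPM, by median ratios or by quantiles, leaving out the trend, a block for the replicate number, fitting the 2 groups alone, and leaving out each of the 9 libraries. Gene positions are from GENCODE 29 (GRCh38) and promoters from RefSeq (GRCh38.p14), with 27 of the 31 members matched by symbol. Tables and figures were made with Python 3.11.15 and matplotlib 3.10.9.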

Additional observations from a re-analysis of the deposited data

Results flagged for a closer look

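Outside the genes compared above, loci assembled from the reads were looked at within 10000 bases of a member. The 2 described first are given because a knockdown group did not overlap the control in them. The locus at chrX:153760893-153764109 (minus strand, GRCh38) lies 87 bases from PLXNB3, which is on the plus strand. It had a mean of 0.561 FPKM in sh-PTBP1-3d, where all 3 libraries (0.537 to 0.581 FPKM) were above those of sh-Luci-3d (0.348 to 0.416), while the sh-PTBP1-7d libraries were at 0.263 to 0.310 FPKM. The locus at chr3:50260362-50263760 lies 3798 bases from SEMA3B on the same strand. It had a mean of 0.984 FPKM in sh-PTBP1-7d, where all 3 libraries (0.609 to 1.26 FPKM) were above those of sh-Luci-3d (0.401 to 0.576) and of sh-PTBP1-3d (0.424 to 0.564). Neither passed the FDR in limma: the adjusted p was 0.687 for the locus near PLXNB3 at day 3 and 0.0200 for the locus near SEMA3B in sh-PTBP1-7d against sh-Luci-3d. Lack of overlap is not rare in these data. It held for 10.8% of all genes tested at day 3 and for 62.3% at 7 against 3 days of knockdown. Another locus, 131 bases from SEMA4F, had overlapping ranges in all groups. Whether loci near members differ from other genes was not tested.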

How the results depend on the processing

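At day 3, 0 members passed in each of the 19 alternatives. Between the knockdown groups the count of 12 ranged from 7 to 15 on leaving out 1 library, with 15 without sh-Luci-3d replicate 3 and 7 without sh-PTBP1-3d replicate 3 or sh-PTBP1-7d replicate 2, and from 8 (no filter) to 14 (2 groups alone) in the other settings. Deviations from the group means correlated at -0.0317 to 0.0512 over 9 same-numbered pairs and at -0.0729 to 0.0608 over 18 other pairs. The replicate numbers thus gave no sign of a pairing. A pairing is not excluded, since a correlation over all genes tested can miss an effect on few of them. With the replicate block 11 members passed between the knockdown groups and 13 against sh-Luci-3d. Against sh-Luci-3d, the 5 members past the FDR and the fold became 8 with TPM (6 rises and 2 falls) and 3 with median-ratio scaling (2 rises and 1 fall), and 4 to 7 on leaving out 1 library. The cause was not tested. Between the knockdown groups, signs changed for 2 members that did not pass. PLXNA3 changed sign with TPM (0.0583). SEMA6C did so with quantile normalization (-0.15) and on leaving out 1 library. There it ranged from -0.0745 (without sh-PTBP1-3d replicate 1) to 0.377 and was -0.0087 without sh-PTBP1-3d replicate 2. In the other comparisons signs also changed, as for SEMA6A at day 3 (-0.163 to 0.0818) and SEMA3F in sh-PTBP1-7d against sh-Luci-3d (-0.080 to 0.219). Of 507 values of single members between the knockdown groups, 447 kept their direction and side of the threshold, 43 lost and 13 gained the call. Of 266 values of the 14 members called against sh-Luci-3d, 232 kept both and 34 lost the call. Low FPKM limit SEMA5B, SEMA6C, SEMA4G, PLXNA4 and PLXNC1, all under 1 FPKM, and depth behind them is unknown.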
